A study of Mus musculus with 4 samples.

Results

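The genes described here write, erase or read methyl groups on histones. They were chosen by name: every symbol beginning with Kdm, Setd, Cbx or Pcgf and a digit, together with Jarid2, Ezh1, Ezh2, Eed, Suz12, Ring1, Rnf2, Ehmt1, Ehmt2, Suv39h1, Suv39h2, Nsd1, Dot1l, Setdb1 and Setdb2. This rule found 55 of the 24346 gene symbols in the tables. RNA sequencing had been carried out on MC38, a tumour cell line derived from mouse colon, with 4 libraries: 2 carry a wild-type label (WT) and 2 the label of an Arid5a knockout (KO). No treatment, time point or animal is given for either group, and the labels do not say how the knockout was made or whether it is 1 clone. Nor do they say whether the 2 libraries of a group came from separate cultures, so p-values measure only the spread between these libraries, which may be technical.

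Methylation of histone tails marks chromatin for use or for silencing. Methyl groups on lysine 4 or lysine 36 of histone H3 accompany active genes, whereas those on lysine 9 and lysine 27 accompany silenced ones. SET domain enzymes and Dot1l add them, and the Kdm demethylases take them off. Polycomb repressive complex 2 (PRC2) methylates lysine 27 of H3, Polycomb repressive complex 1 (PRC1) ubiquitinates histone H2A, and the HP1 proteins bind methylated lysine 9.

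Levels are given in FPKM, which scales fragments to transcript length and to the number mapped, so they can be compared between genes. Arid5a, the targeted gene, was at 0.225 and 0.124 FPKM in the WT-labelled libraries and at 2.16 and 1.77 FPKM in the KO-labelled ones. It was thus higher where a loss was labelled, with a log2(FPKM + 1) change of 1.33 ± 0.13 (SE, limma, adjusted p = 0.0013). The ratio of mean FPKM was 11.3. In WT replicates 1 and 2 its level corresponds to about 1 to 18 and 1 to 7 fragments, depending on the transcript. Directions below refer to the labels as deposited. Were the labels of the groups exchanged, every rise below would be a fall and every fall a rise; whether they were cannot be told from these values. Estimated depth was 9500000 to 14100000 fragments per library. All 12 epithelial markers examined were below 1 FPKM in each library, and Epcam, Cdx1, Cdx2, Lgr5 and Cldn7 were listed at 0 in all 4, so the defining markers of colon epithelium were absent or nearly so. Of 11 leukocyte markers, 6 were listed at 0 throughout, among them Cd3e, Itgam, Adgre1, S100a9 and Ncr1. The summed level of the leukocyte list was 8.81 and 11.7 FPKM in the WT-labelled libraries and 2.71 and 1.94 FPKM in the KO-labelled ones. Most of it came from Cd68 (6.14 and 5.80 FPKM against 1.03 and 1.67 FPKM) and S100a8. Ptprc (0.0655 and 0.0854 FPKM against 0 and 0 FPKM), Lyz2 and Csf1r were below the filter. Of these, Ptprc and Lyz2 were lower and Csf1r higher in the KO-labelled libraries. Cd68 fell, as did S100a8 (1.77 and 4.61 FPKM against 1.06 and 0 FPKM), whose call was lost in 10 of the 15 alternatives, among them those without WT replicate 2 and without KO replicate 2 (highest adjusted p = 0.187). In bulk RNA, fewer cells of a type and less RNA per cell cannot be told apart. Of 7 fibroblast markers, Col1a1 rose, Col3a1 and Dcn fell, Pdgfra and Pdgfrb were not called, and Col1a2 and Thy1 were below the filter. The sum of all 7 was 44.95 and 40.9 FPKM against 19.9 and 20.6 FPKM. Its drop lay in Col3a1 (29.3 and 26.4 FPKM against 6.78 and 6.86 FPKM) and Dcn (5.13 and 4.53 FPKM against 0.613 and 0.993 FPKM). The part of these marker shifts in the results below was not tested.

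The comparison asks which of these genes differ between the 2 groups. Most called changes were rises by label. A gene was called when the Benjamini-Hochberg adjusted p of limma, taken over all genes tested, was under 0.05. Of the 55 genes, 53 had the mean of at least 1 FPKM needed for the test. The other two, Kdm4d and the Y-linked Kdm5d, were listed at 0 in all 4 libraries. Of the 53, 23 were called higher and 5 lower in the KO-labelled libraries. Together these are 52.8%, where 47.6% of all 10827 tested genes were called. Called higher were 43.4% of the tested members and 24.4% of all tested genes, and called lower 9.43% and 23.3%. The median log2 change was 0.11 for the members and 0.006 for all tested genes. The median absolute change was 0.17 for the members and 0.18 for all tested genes. Of the 28 called members, 26 (92.9%) changed by less than 0.5 on the log2(FPKM + 1) scale, as did 75.3% of all called genes. All log2 changes given here are on that scale, which understates changes at low levels. Both KO-labelled libraries lay above both WT-labelled ones for 31 members (58.5%; 39.4% of all tested genes) and below for 7 (13.2%; 38.2%). In either direction the groups stood apart for 77.5% of all tested genes.

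The count of calls rests on all 4 libraries. It fell from 23 higher to 7 without WT replicate 1, to 8 without WT replicate 2 and to 11 without KO replicate 2, and from 5 lower to 2 on omission of WT replicate 1, WT replicate 2 or KO replicate 1. With libraries scaled to equal FPKM sums, 12 members were called higher and 5 lower. Among those no longer called were Kdm1a, Kdm2a, Kdm3a, Kdm4a, Kdm4c, Kdm7a, Ring1, Pcgf3, Cbx8 and Cbx5. That scaling moved the share of rises among all called genes from 51.2% to 37.3%. Jarid2, Kdm4b, Ehmt1, Setd3, Setd8, Cbx6 and Nsd1 kept their call in every one of the 15 alternatives that tested them. The other 21 lost it in at least 1. Jarid2 and Nsd1 were not tested at a filter of 5 FPKM.

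**Figure D1:**
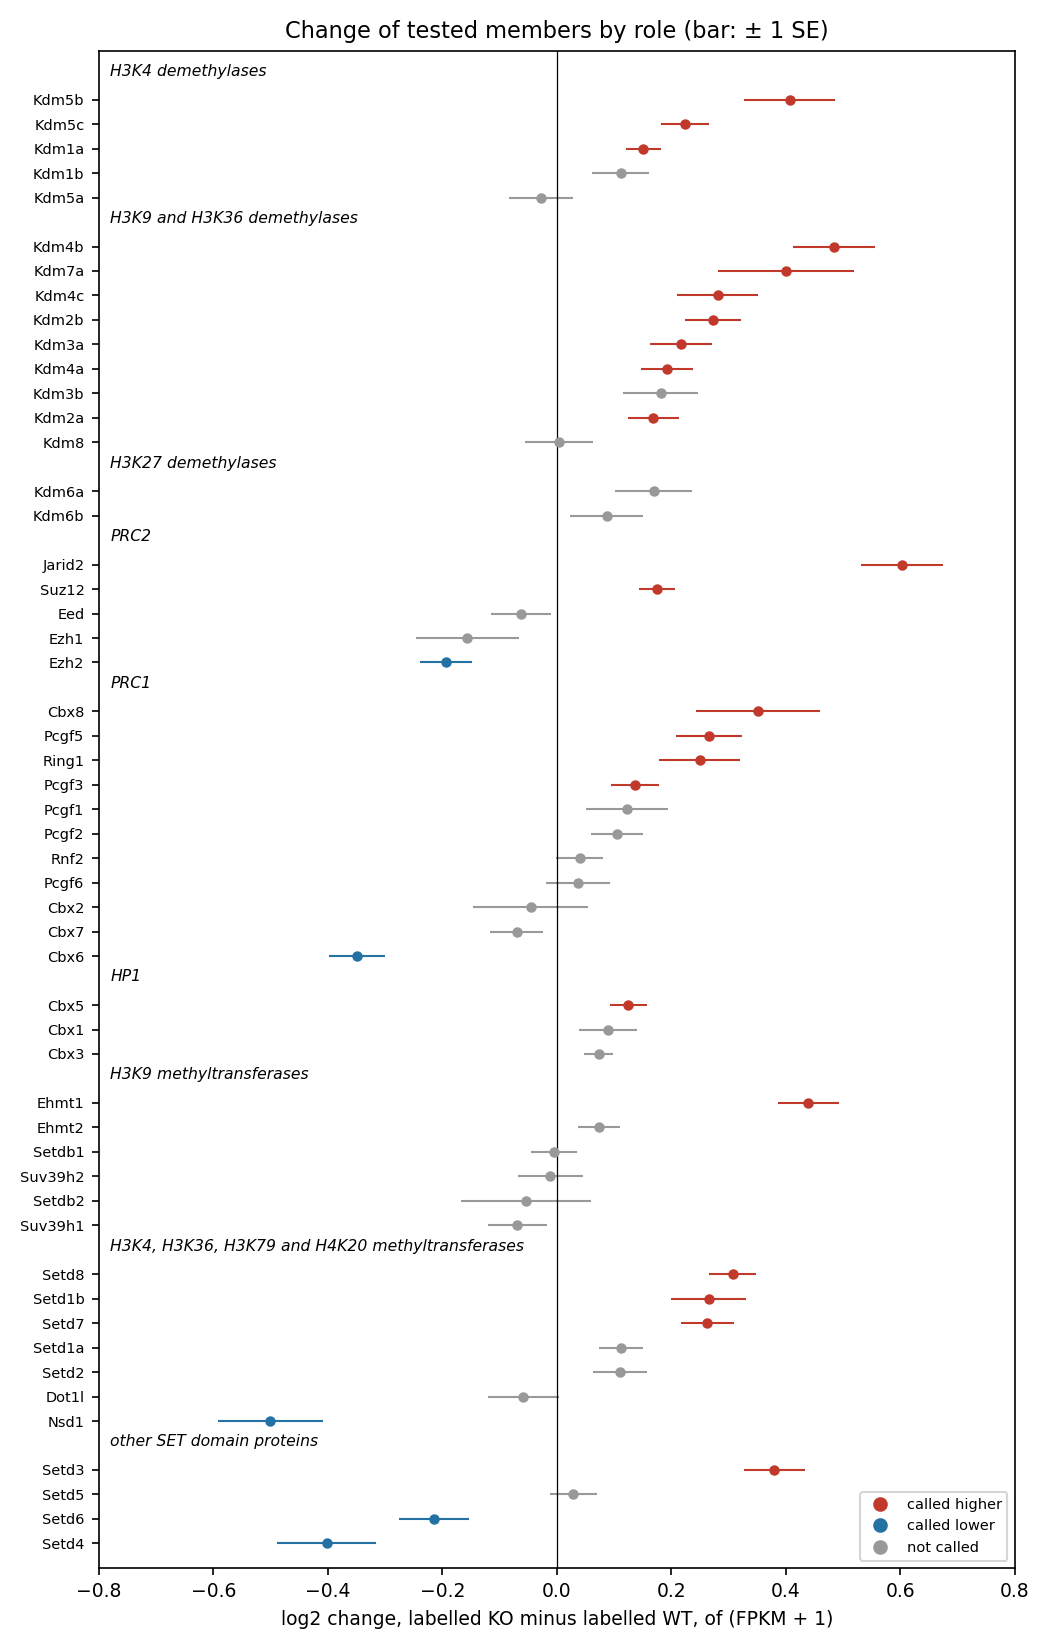
Log2 change of 52 of the 53 tested members (horizontal axis, KO-labelled libraries minus the WT-labelled ones, on the log2(FPKM + 1) scale), grouped by role, with bars of 1 SE. Red points are 22 called higher, blue points 5 called lower and grey points 25 not called. The demethylases lie mostly to the right of 0, whereas PRC2, PRC1 and the methyltransferases hold points on both sides.

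PRC2 mRNAs did not move as a block. Ezh2, the main catalytic subunit, was at 67.0 and 65.4 FPKM in the WT-labelled libraries and at 55.7 and 59.9 FPKM in the KO-labelled ones. It fell (-0.19 ± 0.045, log2 and SE; adjusted p = 0.0196 by limma), and the call was lost on omission of WT replicate 1, WT replicate 2 or KO replicate 1 (highest adjusted p = 0.0961). Suz12, the scaffold subunit, was at 73.5 and 72.3 FPKM against 83.4 and 81.4 FPKM and rose by 0.17 ± 0.031 (adjusted p = 0.00872), a call lost without WT replicate 2 (adjusted p = 0.0545). The ratio of Ezh2 to Suz12 FPKM was 0.911 and 0.905 in the WT-labelled libraries and 0.667 and 0.736 in the KO-labelled ones. These ratios did not overlap, but with 2 libraries against 2 the smallest two-sided p that an exact permutation test can give is 0.333.

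Jarid2, a PRC2 cofactor that helps bring the complex to chromatin, showed the largest change of all members on the log2(FPKM + 1) scale. It was at 3.61 and 3.86 FPKM in the WT-labelled libraries and at 6.30 and 6.07 FPKM in the KO-labelled ones, a rise of 0.60 ± 0.071 (SE; limma, adjusted p = 0.00233). By the ratio of mean FPKM, KO-labelled over WT-labelled, Nsd1 (0.59) changed more than Jarid2 (1.66). Jarid2 lies on chromosome 13 from 44729474 to 44921643, plus strand (GRCm38). The other members of the complex were not called. Eed, which binds methylated lysine 27, was at 45.7 and 45.3 FPKM against 45.6 and 41.5 FPKM (-0.06 ± 0.053). Ezh1, the alternative catalytic subunit, was at 7.91 and 8.68 FPKM against 6.78 and 7.92 FPKM (-0.16 ± 0.090), with overlapping groups. Ezh1 made up 10.6% and 11.7% of summed Ezh FPKM in the WT-labelled libraries and 10.9% and 11.7% in the KO-labelled ones, so Ezh2 dominated in every library.

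Of the 12 PRC1 genes, all tested, 5 rose and 1 fell (41.7% and 8.33%, beside 24.4% and 23.3% of all tested genes). The rises numbered 1 with no filter or with equal FPKM sums, 2 with the replicate number as a block, and 0 to 2 without single libraries (0 without WT replicate 2 and without KO replicate 2). The ubiquitin ligase subunits are Ring1 and Rnf2. Rnf2, the more abundant, was at 26.8 and 26.0 FPKM against 26.7 and 27.7 FPKM and was not called (0.04 ± 0.042). Ring1 was at 7.13 and 7.95 FPKM against 9.31 and 8.96 FPKM and rose by 0.25 ± 0.071 (SE; limma, adjusted p = 0.036), a call lost whichever library was left out (adjusted p of 0.0519 to 0.163). Pcgf proteins decide which PRC1 variant forms. Pcgf5 was at 16.7 and 15.2 FPKM against 19.3 and 19.4 FPKM and rose by 0.27 ± 0.058 (adjusted p = 0.0157). Its call was lost without WT replicate 2, KO replicate 1 or KO replicate 2 (highest adjusted p = 0.0732). Pcgf3 rose by 0.14, a call lost whichever library was left out (adjusted p of 0.0935 to 0.181). Pcgf2 was at 20.1 and 21.1 FPKM against 22.5 and 22.0 FPKM (0.11 ± 0.045, adjusted p = 0.111) and was not called, nor were Pcgf1 (0.12) and Pcgf6 (0.04).

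The Cbx subunits of PRC1, which bind methylated lysine 27 through a chromodomain, parted. Cbx6, the most abundant, was at 26.7 and 25.8 FPKM in the WT-labelled libraries and at 19.7 and 21.0 FPKM in the KO-labelled ones. It fell by 0.35 on the log2 scale (SE 0.049; limma, adjusted p = 0.004). Cbx6 (chromosome 15, 79823896 to 79834688, minus strand) overlaps Npcd, a coding gene on the same strand at 23.4 and 23.5 FPKM against 18.6 and 18.6 FPKM, so shared reads cannot be told apart. Cbx8 was at 8.57 and 7.30 FPKM against 9.51 and 11.3 FPKM and rose by 0.35 ± 0.11 (adjusted p = 0.0453). The call was lost on omission of WT replicate 1, WT replicate 2 or KO replicate 2 (highest adjusted p = 0.19). With all 4 libraries, Cbx8 was also not called with no filter, equal FPKM sums, moderation without trend or the replicate block. Cbx2 (-0.05) and Cbx7 (-0.07) were not called. Cbx7 overlaps Apobec3 on the opposite strand, which was at 92.3 and 91.8 FPKM against 41.6 and 43.9 FPKM, and the handling of strand is not given in the sources used here.

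**Figure D2:**
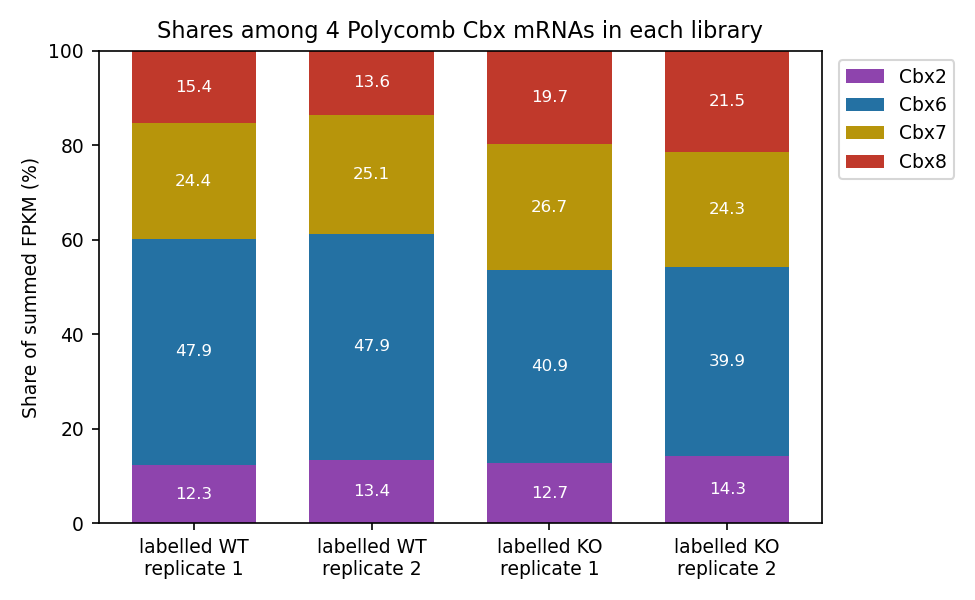
Share of each of 4 Polycomb Cbx mRNAs (vertical axis, percent) in the summed FPKM of Cbx2, Cbx6, Cbx7 and Cbx8, with 1 bar per library. Cbx6 takes 47.9% and 47.9% in the WT-labelled libraries and 40.9% and 39.9% in the KO-labelled ones, while Cbx8 takes 15.4% and 13.6% against 19.7% and 21.5%.

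The 4 mRNAs are not the whole Polycomb Cbx set, so their sum is not given as a level. As shares within each library, the groups did not overlap for Cbx6 and Cbx8 and overlapped for Cbx2 and Cbx7. Among the HP1 genes, Cbx3 was the most abundant member of all at 231 and 226 FPKM against 240.4 and 239.9 FPKM and was not called (0.07 ± 0.026, adjusted p = 0.0674; called with equal upper quartiles, 0.0403). GENCODE M21 names 8 processed copies of Cbx3 (Cbx3-ps1 to Cbx3-ps8), so its level is uncertain where reads are shared. Cbx1 was at 61.0 and 58.1 FPKM against 66.0 and 60.9 FPKM, with overlapping groups. Cbx5 rose by 0.12 ± 0.032 (SE; limma, adjusted p = 0.0276), a call lost whichever library was left out (adjusted p of 0.0693 to 0.12).

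Demethylases rose in 10 of 16 tested cases and fell in 0, by limma, with 11 higher and 0 lower at an unadjusted p under 0.05. The called shares were 62.5% and 0%, beside 24.4% and 23.3% of all tested genes. The rises numbered 4 with equal FPKM sums, 1 without WT replicate 1, 3 without WT replicate 2 and 5 without KO replicate 2. Among those acting on lysine 9 and lysine 36, 7 of 9 rose (77.8%). Kdm4b was at 6.98 and 6.69 FPKM in the WT-labelled libraries and at 9.42 and 10.5 FPKM in the KO-labelled ones, a rise of 0.48 ± 0.072 (SE; limma, adjusted p = 0.00473). Kdm4b lies on chromosome 17 from 56326062 to 56402870, plus strand. Its relatives Kdm4a and Kdm4c share its substrates. Kdm4a was at 19.8 and 19.1 FPKM against 21.9 and 22.8 FPKM (0.19 ± 0.045, adjusted p = 0.0203), and Kdm4c at 6.42 and 6.04 FPKM against 7.46 and 8.11 FPKM (0.28 ± 0.070, adjusted p = 0.0249). Summed FPKM of the Kdm4 mRNAs was 33.2 and 31.8 against 38.8 and 41.4, and Kdm4b made up 21.0% and 21.0% of it against 24.3% and 25.4%.

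Kdm7a, which acts on lysine 9 and lysine 27, was the lowest tested member, at 0.996 and 1.05 FPKM against 1.48 and 1.88 FPKM. Its rise of 0.40 ± 0.12 (SE; limma, adjusted p = 0.0409) was lost on omission of WT replicate 1, WT replicate 2 or KO replicate 2 (highest adjusted p = 0.121), as were those of Kdm4a and Kdm4c (0.11 and 0.122). With equal FPKM sums Kdm7a, Kdm4a and Kdm4c were not called either. With the replicate block Kdm7a and Kdm4c were not called, nor was Kdm4c with no filter. At its levels Kdm7a corresponds to about 110 to 191 fragments per library. Kdm2b, which binds unmethylated CpG islands and carries a PRC1 variant there, was at 14.8 and 15.4 FPKM against 18.9 and 18 FPKM. It rose by 0.27 ± 0.050 (adjusted p = 0.00906), and Kdm2a rose by 0.17 ± 0.044 (adjusted p = 0.029). Without WT replicate 1 neither was called (adjusted p of 0.059 for Kdm2b and 0.138 for Kdm2a), and Kdm2a was also not called without WT replicate 2, without KO replicate 2 or with equal FPKM sums. Kdm3a, which is induced by hypoxia in many cells, was at 17.4 and 16.4 FPKM against 20.4 and 19.2 FPKM and rose by 0.22 ± 0.054 (adjusted p = 0.0243). This call was lost on omission of WT replicate 1, WT replicate 2 or KO replicate 1, and with equal FPKM sums. Of 10 hypoxia markers, 8 rose and 0 fell by limma in the same libraries (8 and 1 at an unadjusted p under 0.05), with a summed level of 278 and 283 FPKM against 588 and 578 FPKM; their part in the rise of Kdm3a, Kdm4b and Kdm4c was not tested. The rises among hypoxia markers were 80% of that list, beside 24.4% of all tested genes. Kdm3b was at 6.61 and 7.04 FPKM against 7.66 and 8.09 FPKM (0.18 ± 0.066, adjusted p = 0.071). Kdm8 was at 9.95 and 9.37 FPKM against 9.47 and 9.90 FPKM (0.004 ± 0.060), and neither was called.

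Of the demethylases of lysine 4, 3 of 5 rose (60%, beside 24.4% of all tested genes). Kdm5b was at 2.26 and 2.34 FPKM against 3.35 and 3.40 FPKM, a rise of 0.41 ± 0.079 (SE; limma, adjusted p = 0.0113) that was not called without WT replicate 1 (0.0537). Kdm5c, an X-linked gene, was at 17.5 and 17.8 FPKM against 20.6 and 21.0 FPKM (0.22 ± 0.042, adjusted p = 0.00995), a call lost without WT replicate 1 or WT replicate 2 (highest adjusted p = 0.062). Kdm5a was at 10.7 and 10.1 FPKM against 10.3 and 10.0 FPKM, with overlapping groups. Within the summed Kdm5 FPKM, Kdm5a accordingly took 35.1% and 33.5% in the WT-labelled libraries and 30.2% and 29.2% in the KO-labelled ones. Kdm1a, the flavin-dependent demethylase LSD1, was the most abundant Kdm mRNA. It was at 58.1 and 57.2 FPKM against 63.8 and 64.4 FPKM and rose by 0.15 ± 0.031 (adjusted p = 0.0132), a call lost on omission of WT replicate 1, WT replicate 2 or KO replicate 2 (highest adjusted p = 0.0754). Equal FPKM sums also left Kdm1a uncalled. Kdm1b was at 16.4 and 15.4 FPKM against 17.1 and 17.4 FPKM and was not called. Kdm6a and Kdm6b, which act on lysine 27 alone among these marks, were not called by limma. At an unadjusted p under 0.05, 0 of them passed, with Kdm6a at 0.0509 by limma. Under some alternatives 1 of them passed: a pseudocount of 0.1 or 0.5, equal upper quartiles, quantile normalisation, and moderation that was robust or without trend. The X-linked Kdm6a was at 5.96 and 5.81 FPKM against 6.99 and 6.49 FPKM (0.17 ± 0.067, adjusted p = 0.0904), and Kdm6b at 9.87 and 10.8 FPKM against 11.3 and 10.8 FPKM (0.09 ± 0.064). Uty, the Y-linked relative of Kdm6a, was at 0 in all 4 libraries, as was Kdm5d.

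Methyltransferases and other SET domain proteins outside PRC2 rose in 5 and fell in 3 of 17 tested cases. These shares, 29.4% and 17.6%, stood beside 24.4% and 23.3% of all tested genes. Nsd1, which dimethylates lysine 36, fell most. It was at 2.60 and 2.41 FPKM in the WT-labelled libraries and at 1.51 and 1.44 FPKM in the KO-labelled ones, a change of -0.50 ± 0.092 (log2, SE; adjusted p = 0.00929 by limma) and a ratio of mean FPKM of 0.59. Nsd1 lies on chromosome 13 from 55209782 to 55318325, plus strand. Setd2, which trimethylates lysine 36, was at 18.2 and 17.9 FPKM against 20.1 and 19.1 FPKM (0.11 ± 0.047, adjusted p = 0.108). Nsd1 supplied 3.98% and 3.74% of the summed FPKM of the Nsd family in the WT-labelled libraries and 2.36% and 2.30% in the KO-labelled ones. The rest came from Whsc1 and Whsc1l1, and the family's sum was 65.4 and 64.5 FPKM against 64.2 and 62.7 FPKM. The fall of Nsd1 therefore touched a small part of these mRNAs.

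Setd8, the enzyme that monomethylates lysine 20 of histone H4 (now named Kmt5a; chromosome 5, 124439930 to 124462308, plus strand), was the most abundant methyltransferase among the members. It was at 114 and 122 FPKM against 147 and 145 FPKM and rose by 0.31 ± 0.041 (SE; limma, adjusted p = 0.00348). Setd7, which monomethylates lysine 4 and other proteins, was at 12.9 and 13.01 FPKM against 15.9 and 15.6 FPKM and rose by 0.26 ± 0.046 (adjusted p = 0.0079; 0.0523 without WT replicate 1). Setd1b, a lysine 4 methyltransferase, was at 4.53 and 4.67 FPKM against 5.75 and 5.71 FPKM and rose by 0.27 ± 0.065 (adjusted p = 0.0235), a call lost whichever library was left out (adjusted p of 0.0713 to 0.108). Its paralog Setd1a was at 24.9 and 24.6 FPKM against 26.5 and 27.1 FPKM and was not called (0.11 ± 0.039, adjusted p = 0.0618; called with equal upper quartiles, 0.0421). Dot1l, which methylates lysine 79, was not called (-0.06).

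Of the 6 lysine 9 methyltransferases, 1 was called (16.7%, beside 47.6% of all tested genes). Ehmt1 was at 10.4 and 10.99 FPKM in the WT-labelled libraries and at 15 and 14.7 FPKM in the KO-labelled ones, a rise of 0.44 ± 0.053 (SE; limma, adjusted p = 0.00251). It lies on chromosome 2 from 24789928 to 24919614, minus strand. Ehmt2, its partner in the heterodimer GLP-G9a, was at 55.4 and 57.2 FPKM against 60.4 and 58.2 FPKM (0.07 ± 0.037, adjusted p = 0.158). The ratio of Ehmt1 to Ehmt2 FPKM was 0.188 and 0.192 against 0.248 and 0.252. Suv39h1, which trimethylates lysine 9 in pericentric chromatin, was at 35.6 and 35.6 FPKM against 32.4 and 35.4 FPKM and was not called (-0.07 ± 0.051). Suv39h2 (-0.01), Setdb1 (-0.005) and Setdb2 (-0.05) were not called and had overlapping groups.

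The remaining SET domain proteins act mainly on other proteins or have no settled substrate. Setd3, a histidine methyltransferase of actin (chromosome 12, 108106431 to 108179314, minus strand), stood at 30.6 and 27.9 FPKM against 38.7 and 37.9 FPKM and rose by 0.38 ± 0.053 (SE; limma, adjusted p = 0.00399). Setd4 was at 2.70 and 2.83 FPKM against 1.80 and 1.89 FPKM and fell by 0.40 on the log2 scale (SE 0.086, adjusted p = 0.0152). Setd6, which methylates the NF-kB subunit RelA, was at 12.6 and 13.9 FPKM against 11.2 and 11.4 FPKM and fell by 0.22 (SE 0.062, adjusted p = 0.0369). The call of Setd4 was lost on omission of WT replicate 1, WT replicate 2 or KO replicate 1 (highest adjusted p = 0.07), and that of Setd6 whichever library was left out (adjusted p of 0.0517 to 0.174). Setd5 was at 25.5 and 25.6 FPKM against 25.6 and 26.6 FPKM and was not called.

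**Figure D3:**
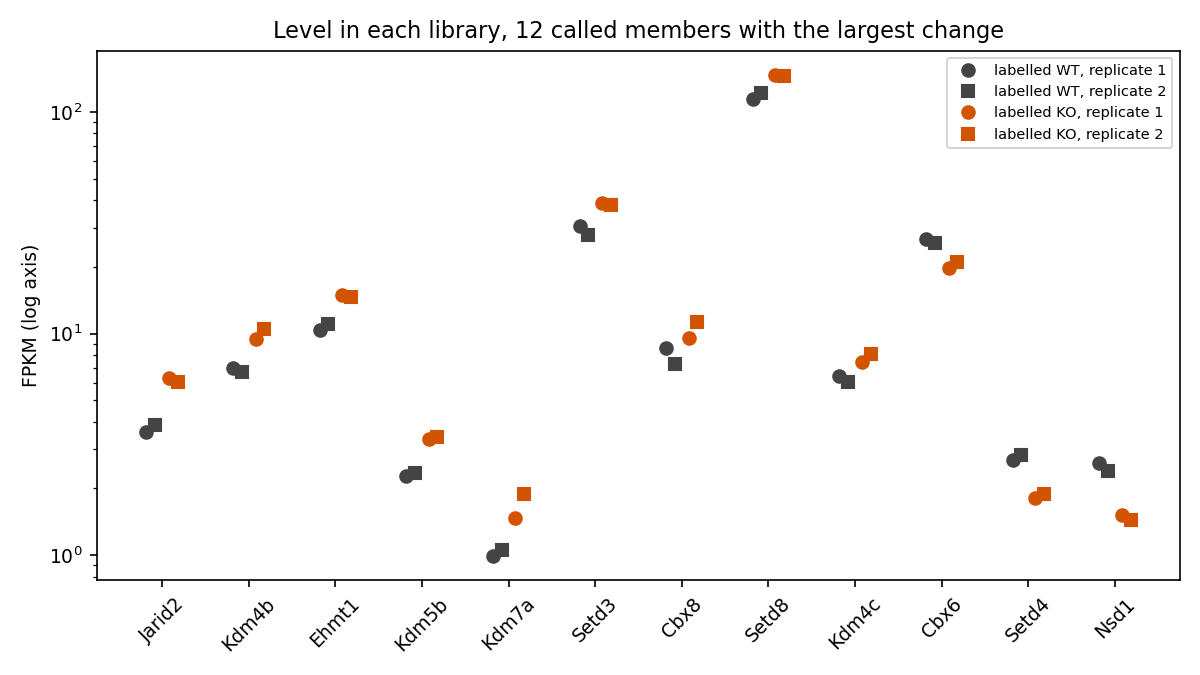
FPKM in each of the 4 libraries (vertical log axis) for the 12 called members with the largest absolute log2 change and separated groups, ordered from the largest rise to the largest fall. Grey points are WT-labelled libraries and orange points the KO-labelled ones; circles are replicate 1 and squares replicate 2. In Setd8 the points sit between 114 and 147 FPKM, and in Kdm7a between 0.996 and 1.88 FPKM.

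Promoters of members that moved are printed to show the letters in front of them, since some share a short motif while moving in opposite directions. RefSeq sequences on GRCm38.p6 matched 45 of the 55 members (61 starts), and the 250 bases before each start were searched on both strands. The core of the hypoxia response element, ACGTG, stood in 26.2% of the members' promoters and in 16.6% of all 32851. The 15 members with a match included 6 called higher, 2 called lower and 7 not called. On opposite strands, matches can overlap in CACGTG, which counts as 2. The E2F motif TTTCCCGC stood in front of Suz12 (0.895% of all promoters) and TTTGGCGC in front of Cbx3 (0.417%). The ATF4 motif TGATGCAA (0.791%) and the E2F motif TTTCGCGC (0.256%) matched 0 members, and the interferon-stimulated response element matched Cbx5 (2.98%). A match here is a description of letters, not a binding site. Each line below runs 5′ to 3′ on the gene's strand, with matches in capitals. They come from chr4:74251629-74251878 on the plus strand (Kdm4c, higher, 1 of 2 starts), chr11:119040914-119041163 on the minus strand (Cbx8, higher), chr15:79834334-79834583 on the minus strand (Cbx6, lower), chr13:44730524-44730773 on the plus strand (Jarid2, higher, 1 of 2 starts), chr6:47595031-47595280 on the minus strand (Ezh2, lower) and chr11:79992856-79993105 on the plus strand (Suz12, higher).
Kdm4c: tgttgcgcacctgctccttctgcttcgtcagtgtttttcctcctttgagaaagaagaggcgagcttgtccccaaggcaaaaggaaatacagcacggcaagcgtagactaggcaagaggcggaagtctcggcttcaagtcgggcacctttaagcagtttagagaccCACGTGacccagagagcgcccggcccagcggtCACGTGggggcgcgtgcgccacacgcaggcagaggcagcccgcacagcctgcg
Cbx8: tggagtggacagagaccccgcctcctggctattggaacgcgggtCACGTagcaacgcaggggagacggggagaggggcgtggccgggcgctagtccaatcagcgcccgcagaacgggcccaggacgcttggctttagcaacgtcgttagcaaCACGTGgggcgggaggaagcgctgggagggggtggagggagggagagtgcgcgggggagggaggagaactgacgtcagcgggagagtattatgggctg
Cbx6: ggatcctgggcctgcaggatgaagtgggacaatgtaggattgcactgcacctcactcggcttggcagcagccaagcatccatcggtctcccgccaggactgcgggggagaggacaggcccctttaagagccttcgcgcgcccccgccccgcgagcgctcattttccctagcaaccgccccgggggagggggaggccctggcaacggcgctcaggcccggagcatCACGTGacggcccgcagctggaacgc
Jarid2: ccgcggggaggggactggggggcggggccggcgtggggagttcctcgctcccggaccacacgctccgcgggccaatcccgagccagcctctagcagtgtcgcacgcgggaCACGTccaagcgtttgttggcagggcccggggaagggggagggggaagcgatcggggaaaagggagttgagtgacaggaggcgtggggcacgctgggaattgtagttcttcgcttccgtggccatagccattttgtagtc
Ezh2: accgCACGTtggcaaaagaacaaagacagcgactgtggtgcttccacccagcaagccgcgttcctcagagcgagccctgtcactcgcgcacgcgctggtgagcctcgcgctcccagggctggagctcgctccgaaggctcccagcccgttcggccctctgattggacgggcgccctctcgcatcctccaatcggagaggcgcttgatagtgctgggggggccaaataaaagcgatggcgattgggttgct
Suz12: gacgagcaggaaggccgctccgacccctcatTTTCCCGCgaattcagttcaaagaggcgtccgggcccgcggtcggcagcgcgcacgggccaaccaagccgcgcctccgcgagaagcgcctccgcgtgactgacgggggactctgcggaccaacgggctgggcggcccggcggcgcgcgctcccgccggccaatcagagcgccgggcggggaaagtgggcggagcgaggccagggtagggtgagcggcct
Kdm4c and Cbx8, which rose, and Cbx6, which fell, all held CACGTG, and the single ACGTG of Jarid2 and of Ezh2 stood in front of a member that rose and a member that fell. CACGTG also stood before Cbx5, which rose, and before Ehmt2, Kdm6a and Pcgf2, which were not called. A link between motif and direction was not tested.

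The position of the genes was compared with their change, because whole chromosomes differed. The median log2 change of tested genes was 0.23 on chromosome 2, 0.15 on chromosome 12, -0.13 on chromosome 13, -0.11 on chromosome 15 and -0.10 on chromosome 11. Around Ehmt1, 87 tested genes within 5 Mb had a median of 0.27, and 81.6% of them had a positive change. Around Nsd1, 55 neighbours had a median of -0.27, and around Cbx6, 145 had a median of -0.16. Setd3 had neighbours at 0.15. Other members stood apart from their surroundings. Jarid2, on the same chromosome as Nsd1, had 36 neighbours at 0.06, and Setd4 had 46 at 0.13 while it fell itself. Each of the 23 members called higher lay above its neighbours' median, and each of the 5 called lower lay below it. The members were called on their own change in the same data, so this was largely fixed beforehand. For 13 of the 23 the neighbours' median was negative. The part of these regional shifts in the changes of single members was not tested.

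**Figure D4:**
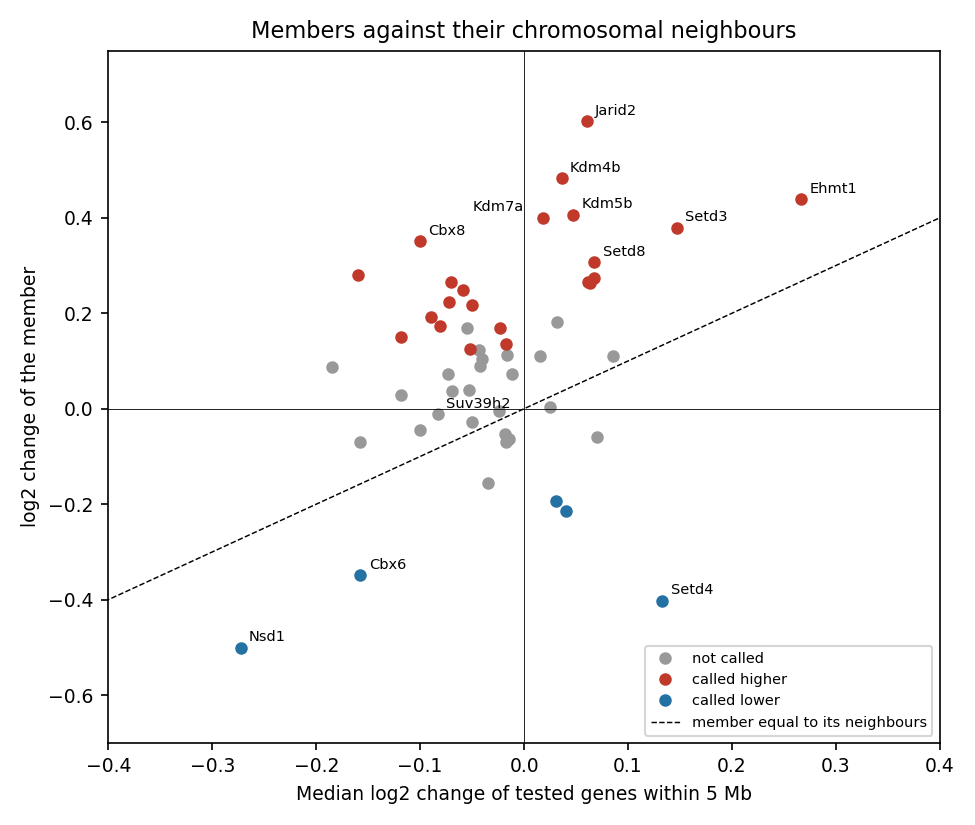
Log2 change of 52 tested members (vertical axis) against the median log2 change of the tested genes within 5 Mb of it (horizontal axis), with the dashed line marking equality. Ehmt1 lies farthest right at 0.27 and Nsd1 farthest left at -0.27, whereas Jarid2 and Kdm4b lie high above neighbours near 0.

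Partners of these enzymes outside the rule were described beside them. Of 71 listed, 66 were tested, and 17 rose and 8 fell (25.8% and 12.1%, beside 24.4% and 23.3% of all tested genes). Counts without single libraries ran from 7 to 10 higher and from 3 to 5 lower, and equal FPKM sums turned the balance, with 8 higher and 14 lower. Among Polycomb partners 4 of 22 rose and 4 fell (18.2% each, beside 24.4% and 23.3% of all tested genes). Single omissions left 2 to 3 rises (2 without WT replicate 2 and without KO replicate 1) and 2 to 3 falls (3 only without KO replicate 1), and equal FPKM sums gave 2 and 5. Phf19, a PRC2 accessory protein, rose by 0.38 ± 0.046 (SE; limma, adjusted p = 0.00258), from 16.5 and 16.4 FPKM to 22.2 and 21.2 FPKM. E130012A19Rik, now named Epop and a PRC2 accessory protein too, fell from 5.18 and 4.48 FPKM to 2.79 and 3.01 FPKM (-0.58 ± 0.093, adjusted p = 0.00616). Phc2, a canonical PRC1 subunit, fell from 60.6 and 62.7 FPKM to 48.2 and 45.6 FPKM (-0.39 ± 0.042, adjusted p = 0.00184).

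Of 13 genes of the lysine 4 methyltransferase complexes, 4 rose and 0 fell by limma, as also at an unadjusted p under 0.05. The called shares were 30.8% and 0%, beside 24.4% and 23.3% of all tested genes. The rises numbered 2 whichever library was left out and with the replicate block, and equal FPKM sums gave 2 rises and 1 fall. Ncoa6 rose by 0.62 ± 0.061 (SE; limma, adjusted p = 0.00138) and the shared subunit Wdr5 by 0.50 ± 0.034 (adjusted p = 0.000519). Ncoa6, Wdr5 and Phf19 all lie on chromosome 2, where their neighbours had medians of 0.19, 0.27 and 0.30. Of 18 other writers 6 rose and 3 fell (33.3% and 16.7%, beside the same shares of all tested genes). Whichever library was left out, 2 to 3 rose and 1 to 2 fell, and equal FPKM sums turned the balance to 2 rises and 4 falls. Prdm16, a SET domain transcription factor, changed by -0.55 ± 0.072 (adjusted p = 0.00325). Of 8 other erasers 3 rose and 1 fell, with 1 rise without WT replicate 2, a fall lost in every single omission but that of KO replicate 1, and 2 rises and 2 falls with equal FPKM sums. The called shares among these erasers were 37.5% and 12.5%, beside 24.4% and 23.3% of all tested genes. Phf2, a JmjC protein, rose from 6.17 and 5.90 FPKM to 9.56 and 9.81 FPKM (0.60 ± 0.059, adjusted p = 0.0014). Of 5 lysine 9 partners 0 were called by limma, with 0 higher and 1 lower at an unadjusted p under 0.05; with equal FPKM sums 2 were called lower, and without KO replicate 2 Mphosph8 was called higher (adjusted p = 0.0408).

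Hox genes, with Cdkn2a and Cdkn2b, are textbook targets of Polycomb silencing. Of 41 in the tables, 22 were tested, 7 were listed at 0 in all 4 libraries, and by limma 6 tested genes rose and 3 fell (27.3% and 13.6%, beside 24.4% and 23.3%). The HoxD genes Hoxd9, Hoxd10 and Hoxd13 rose most. Hoxd10 was at 4.48 and 3.93 FPKM against 7.87 and 7.94 FPKM (0.78 ± 0.078, SE; limma, adjusted p = 0.00145), and Hoxd13 at 6.23 and 5.97 FPKM against 12 and 10.4 FPKM (0.78 ± 0.082, adjusted p = 0.00172). Hoxd9 was at 3.99 and 3.72 FPKM against 7.498 and 6.38 FPKM (0.71 ± 0.093, adjusted p = 0.00327). HoxD lies on chromosome 2, and 48 genes within 5 Mb of Hoxd10 had a median of 0.28. Hoxd8 in the same cluster was not called (0.15). Hoxb13 (-0.48), Hoxc10 (-0.39) and the cell cycle inhibitor Cdkn2a (-0.41) fell. Without KO replicate 1 the rises numbered 3. Without WT replicate 1 the limma count of falls was 0, with 3 at an unadjusted p under 0.05, and it was 1 without KO replicate 1 and 1 without KO replicate 2. Hoxb9, singled out after its values were seen, was below the filter: it was listed at 0 in both WT-labelled libraries and at 1.29 and 1.83 FPKM in the KO-labelled ones.

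**Figure D5:**
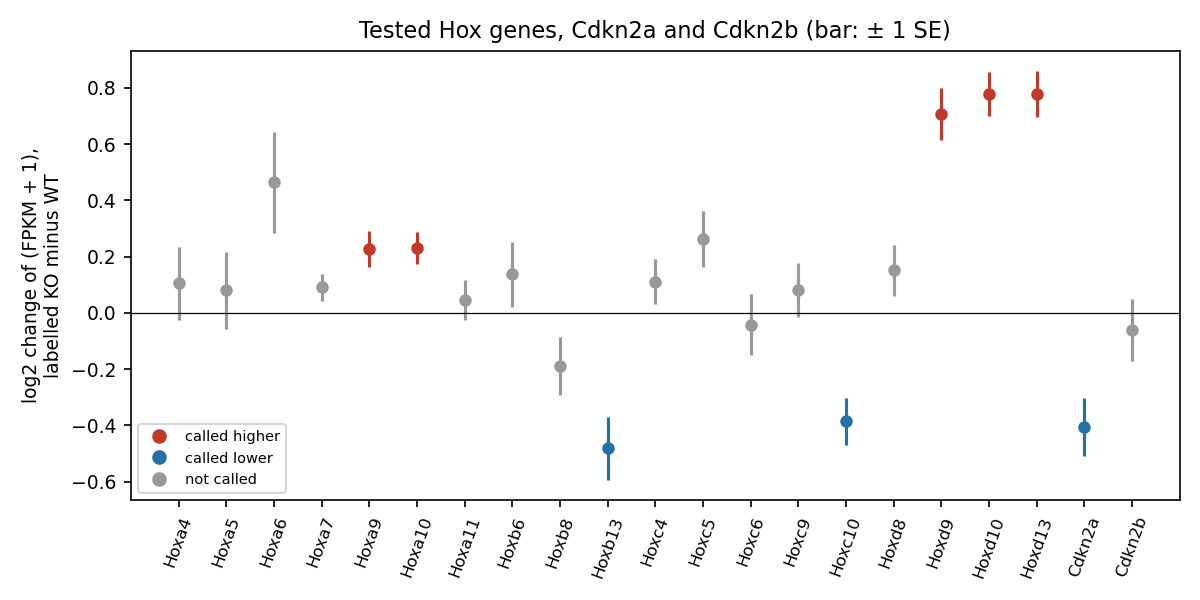
Log2 change (vertical axis, log2(FPKM + 1) scale, KO-labelled libraries minus the WT-labelled ones) of 21 of the 22 tested genes (Hox genes, Cdkn2a and Cdkn2b), with bars of 1 SE. Red points are called higher, blue points called lower and grey points not called; Hoxd9, Hoxd10 and Hoxd13 lie at 0.71 to 0.78.

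Ezh2 is often higher in dividing cells. Of 14 proliferation markers, all tested, 7 rose and 0 fell by limma (9 and 0 at an unadjusted p under 0.05), with a summed level of 2020 and 2026 FPKM in the WT-labelled libraries and 2439 and 2434 FPKM in the KO-labelled ones. These 7 rises were 50% of the list, beside 24.4% of all tested genes. Ezh2 fell in the same libraries. The part of these markers in the results on members was not tested.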

How the data were processed

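RNA from 4 MC38 libraries (2 labelled WT, 2 labelled KO) was prepared with a stranded TruSeq mRNA kit, per the labels' protocols. The authors deposited FPKM values, 1 table per library; Cufflinks 2.2.1, Bowtie2 2.2.3, TopHat2 2.0.13, SAMtools 0.1.19 and mm10 were used per the submitters' processing notes, with settings, annotation and strand handling not given in the sources used here. Depth was estimated from genes with 1 transcript, at least 2 kb long: 80.8% to 84.1% of low values lay within 0.15 of a whole number of fragments. Fragment length was not subtracted, so depths are approximate and fragment counts depend on the transcript. Whole counts were not recovered, and no count model was used.

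Values were transformed to log2(FPKM + 1), which understates changes at low levels, most of all near or below 1 FPKM. Genes whose mean reached 1 FPKM were fitted with limma 3.58.1 in R 4.3.3 (trended eBayes, group only, two-sided, Benjamini-Hochberg over all genes tested, called under 0.05), and the script was tested on simulated data. Python 3.11.15 served for the rest. Positions are from GENCODE M21 (GRCm38, the assembly of mm10), with 23907 of 24346 symbols placed, and promoters from RefSeq. The members, role groups and lists were chosen with earlier results of these data known. Values per library were printed for Arid5a, the 12 called members with separated groups and the largest absolute change, up to 2 uncalled members per role with the highest level, and Kdm5c, Kdm5d and Kdm6a; those of further members were added after their values were seen. Up to 4 called genes with the largest change were named from each further list. Alternatives covered the pseudocount, filter, scaling, moderation, a replicate block and the omission of each library. A few listed genes are counted but not reported by name here.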

Additional observations from a re-analysis of the deposited data

How the results depend on the processing

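Across the 15 alternatives, 0 of the 28 called members changed direction. Wherever they were tested, 7 kept their call throughout and 15 kept it under every alternative with all 4 libraries. Members with a mean below 5 FPKM, Jarid2 and Nsd1 among them, were not tested at a filter of 5 FPKM. The groups of each of the 28 did not overlap. Leaving out a library, or changing the pseudocount, filter, moderation or block, therefore could not reverse a direction. Members called higher numbered 23, 12 with equal FPKM sums and 25 with equal upper quartiles, where Cbx3 and Setd1a were also called; leaving out single libraries gave 7 to 17. Members called lower numbered 5, and 3 of 48 tested at a filter of 5 FPKM; leaving out single libraries gave 2 to 4. Fewer libraries leave fewer degrees of freedom, and the count over all genes fell too, from 2641 to between 1666 and 2007 higher and from 2518 to between 1550 and 1985 lower.

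Related genes called higher numbered 17, and 11 with no filter, 8 with equal sums and 10 with the replicate block (7 to 10 without single libraries). Those called lower numbered 8, and 4 with no filter, 4 at a filter of 5 FPKM, 14 with equal sums, 5 with equal upper quartiles and 5 with the replicate block (3 to 5 without single libraries). Hox genes called higher numbered 6 (3 to 5 without single libraries), and those called lower 3, with 1 at a filter of 5 FPKM and 0 to 2 without single libraries.

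Some uncalled members near 0 changed sign. With equal sums Kdm8 was at -0.057, Rnf2 at -0.0246, Pcgf6 at -0.0274 and Setd5 at -0.0362. With equal upper quartiles Suv39h2 was at 0.00359 and Setdb1 at 0.011, and with quantile normalisation Setdb1 was at 0.0111. Without single libraries the log2 change ran from -0.0629 to 0.00646 for Kdm5a, from -0.0354 to 0.0428 for Kdm8, from -0.13 to 0.00431 for Eed, from -0.0242 to 0.0974 for Pcgf6, from -0.175 to 0.0843 for Cbx2, from -0.0245 to 0.0017 for Suv39h2, from -0.0236 to 0.013 for Setdb1, from -0.205 to 0.0969 for Setdb2 and from -0.126 to 0.00908 for Dot1l. The cause of these shifts was not tested. The replicate numbers were tried as a block: the deviations of same-numbered libraries correlated at 0.138 over 10827 genes, and the labels do not say what a number marks. With the replicate block 18 members were called higher and 5 lower. Depth limits the precision of members with few estimated fragments. Setd4 had 31 to 70 per library on its longest coding transcript and 7 to 15 on its shortest. Nsd1 had 184 to 471 on its longest and 5 to 12 on its shortest, and Jarid2 252 to 386 and 14 to 22.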
